A study of Mus musculus with 6 samples.

Results

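10 genes of the tumour necrosis factor (TNF) receptor system were followed in mouse CD4+ T cells: the co-stimulatory receptors Tnfrsf9, Tnfrsf4, Tnfrsf18, Tnfrsf8 and Cd27, the TNF receptors Tnfrsf1a and Tnfrsf1b, the death-domain receptors Fas and Tnfrsf25, and the ligand Cd40lg. They were chosen by name, and all 10 were found among the 21362 genes of the count table. RNA sequencing measured 6 libraries, each labelled as CD4+ T cells. The series concerned regulatory T cells given sorafenib, a kinase inhibitor used against liver and kidney cancer, and cells without it. The labels do not say which libraries were treated, nor the strain, age, dose, time in culture or whether libraries came from separate animals. The libraries were therefore left without groups, their values are given one by one, and no test between conditions was made. Libraries carry the numbers 1 to 6 of their titles, and values given in a series follow that order.

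Receptors of this family bind trimeric ligands of the TNF superfamily, most of them on the surface of another cell. Co-stimulatory members recruit TRAF adaptor proteins to their tails and feed NF-kB and kinase signalling that prolongs the survival of activated T cells. Members with a death domain can instead assemble a complex that activates caspase-8. In CD4+ T cells many of these receptors are induced by antigen receptor signalling, and regulatory T cells are known for high surface levels of several.

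Total counts over genes ran from 32435799 to 36316162 per library. A gene's level is given as CPM, the reads of a gene relative to a library total that was scaled for composition by the TMM method of edgeR, and intervals are exact Poisson 95% intervals that cover counting error only. The lineage markers Cd4 (412 to 482 CPM) and Cd3e (200.3 to 218 CPM) were abundant in every library. Foxp3, the factor that defines regulatory T cells, stood at 7.37, 7.66, 7.86, 11.9, 13.4 and 11.2 CPM, with libraries 4 to 6 high. Per length it ranked between 7940 and 9005 among all genes. The series names regulatory T cells and the labels CD4+ T cells, and which population the libraries hold was not settled here. The summed level of 5 B cell genes, of which 3 averaged 1 CPM or more, was 4.86, 5.58, 5.48, 8.17, 7.79 and 7.70 CPM. Among them Cd79b was at 1.83 to 3.80 CPM and Cd79a at 0.717 to 1.75 CPM. The summed level of 5 dendritic cell genes, of which 2 averaged 1 CPM or more, was 4.57, 4.48, 4.27, 5.70, 7.24 and 6.97 CPM. Both sums were higher in libraries 4 to 6. Of the dendritic cell genes, Zbtb46 followed that order at 2.61, 3.04, 2.70, 4.799, 5.12 and 5.45 CPM, and Flt3 did not, at 1.74, 1.39, 1.29, 0.765, 1.70 and 1.27 CPM. The sum of 2 CD8+ T cell genes was 9.11, 9.16, 8.52, 10.1, 9.31 and 9.84 CPM. That of 6 monocyte and macrophage genes was 9.91, 9.54, 12.8, 9.73, 9.28 and 10.15 CPM, with library 3 the highest. The sums of natural killer cell genes and of neutrophil genes were higher in libraries 1 to 3. That of 4 natural killer cell genes, of which 0 averaged 1 CPM, was 1.13, 1.10, 1.09, 0.765, 0.604 and 0.984 CPM. That of 3 neutrophil genes, also 0, was 1.51, 1.13, 1.89, 0.396, 0.431 and 0.225 CPM. Of the natural killer cell genes, Klrd1 was higher in libraries 1 to 3, and Klrb1c, with 0 to 4 reads, was not. Of the neutrophil genes, Ly6g was higher there, at 1.42, 0.983, 1.29, 0.0791, 0.201 and 0.0562 CPM. Mpo was not, at 0.0644, 0.145, 0.602, 0.316, 0.230 and 0.169 CPM. Cd8b1 (8.86 CPM on average) and Cd68 (9.57 CPM) were the only CD8+ T cell and monocyte genes of those lists to average 1 CPM, and stood near the mean of Foxp3 (9.89 CPM). The part of these cells in the levels below was not tested, and in bulk RNA fewer cells of a type and less RNA per cell cannot be told apart. Libraries 1, 2 and 3 resembled each other, and so did libraries 4, 5 and 6. The chi-square per gene between a pair of libraries was 3.75 to 6.44 within those sets and 46.7 to 57.3 across them, where counting error alone gives about 1. Mitochondrially encoded genes took 1.90% to 2.02% of counts in libraries 1 to 3 and 2.37% to 2.45% in libraries 4 to 6, and ribosomal protein genes 15.2% to 15.7% and 14.8% to 14.96%. The part of these shares in the levels below was not tested.

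Tnfrsf9 and Tnfrsf8 were the 2 members whose levels differed most between libraries, while Tnfrsf4 ranged 1.07-fold. Tnfrsf9 encodes 4-1BB (CD137), a receptor that appears on T cells after activation and sustains their proliferation and survival. Its level was 1749, 1763, 1690.4, 825, 839 and 909.6 CPM. Libraries 1, 2 and 3 were high, libraries 4, 5 and 6 were low, and no value lay between 909.6 and 1690.4 CPM. The highest library stood 2.14-fold above the lowest. Tnfrsf8 encodes CD30, a receptor of activated lymphocytes whose tail binds TRAF proteins. It was measured at 724, 677, 662, 333, 356 and 369.8 CPM, a range of 2.17-fold, with the same libraries high and low.

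Tnfrsf4 encodes OX40, a receptor that supports survival and memory formation of CD4+ T cells. Tnfrsf4 was at 439, 460.1, 442, 449, 439.9 and 471 CPM, a range of 1.07-fold, and 97.3% of the genes averaging 1 CPM or more ranged as widely. With plain library totals in place of the TMM scaling the range was 1.16-fold, and libraries 1 to 3 were then the lowest. Tnfrsf18 encodes GITR, a receptor carried at high level by regulatory T cells and by activated T cells. Tnfrsf18 was at 344, 348, 335, 298, 300.4 and 321 CPM, a range of 1.17-fold. Libraries 4 and 5 were the lowest and libraries 1 and 2 the highest. With plain totals the range was 1.07-fold. An exon of Tnfrsf18 overlaps the opposite-strand gene Gm16008, whose mean was 4.19 CPM, and the strand setting of the counting is not given in the sources used here.

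Cd27 encodes a co-stimulatory receptor that is present on resting T cells and engages CD70. It was at 50.8, 47.8, 44.1, 54.0, 53.1 and 57.2 CPM, a range of 1.30-fold. Library 3 was the lowest and library 6 the highest, so Cd27 was not high in the libraries where Tnfrsf9 and Tnfrsf8 were high.

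**Figure D1:**
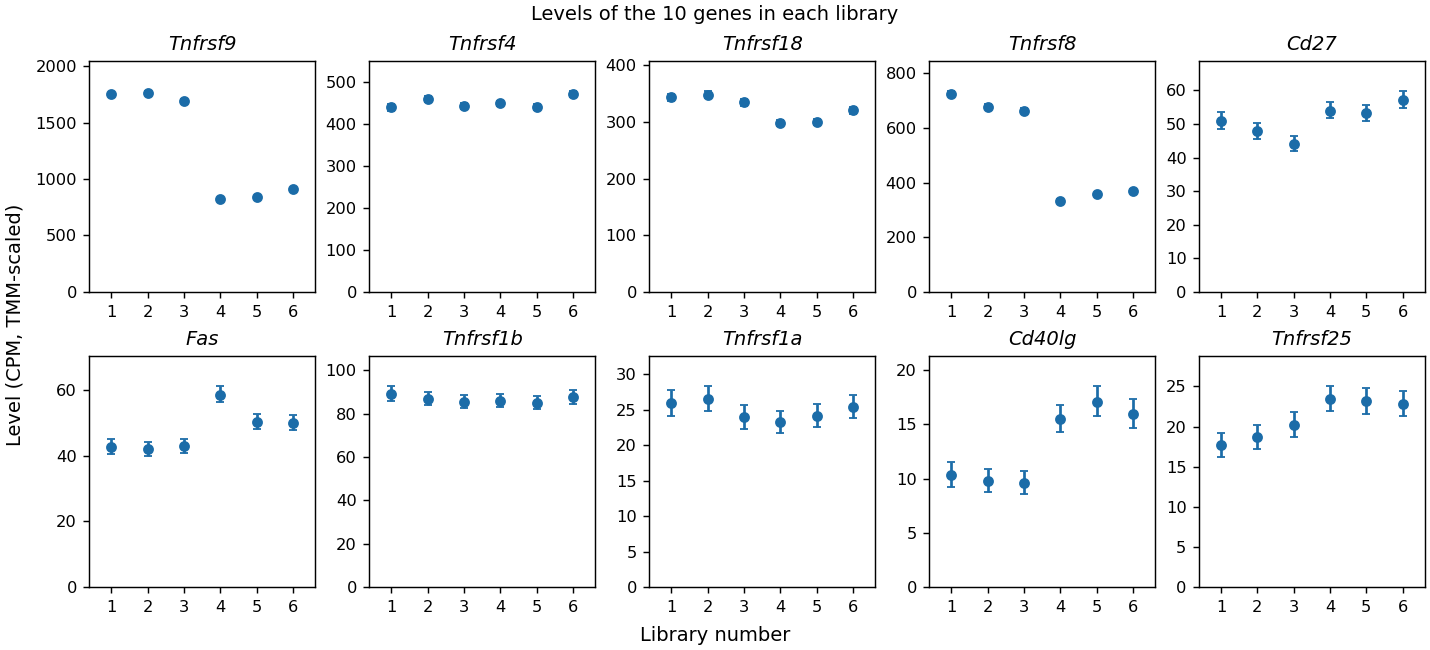
Level of each of the 10 genes in the 6 libraries, in CPM on an axis that starts at 0. Each panel is 1 gene, each point 1 library, and bars are exact Poisson 95% intervals, which are shorter than the points for the abundant genes. Tnfrsf9 falls between 1690.4 and 1763 CPM in libraries 1 to 3 and between 825 and 909.6 CPM in libraries 4 to 6, whereas Tnfrsf4 stays between 439 and 471 CPM.

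Tnfrsf1a and Tnfrsf1b encode the receptors TNFR1 and TNFR2. TNFR1 carries a death domain and is found on most cells, and TNFR2 lacks that domain, binds TRAF2 and is prominent on regulatory T cells. Tnfrsf1b was at 89.3, 87.0, 85.6, 86.0, 85.0 and 87.8 CPM, a range of 1.05-fold, and 99.3% of genes ranged as widely or more. Tnfrsf1a was at 25.9, 26.5, 23.9, 23.2, 24.1 and 25.4 CPM, a range of 1.14-fold. The counting intervals of any pair of libraries overlapped for Tnfrsf1b. For Tnfrsf1a they overlapped except between libraries 2 and 4. Which library was highest or lowest changed with the scaling: with plain totals, both were highest in library 6 and lowest in library 3. Tnfrsf1b lies next to Tnfrsf8 on chromosome 4, the gene with the 2.17-fold range.

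Fas encodes the death receptor of activated T cells, and Tnfrsf25 encodes DR3, a death-domain receptor that co-stimulates T cells when it binds its ligand TL1A. Fas was at 42.6, 41.9, 42.9, 58.6, 50.3 and 50.02 CPM, a range of 1.40-fold. Libraries 1 to 3 were the low ones, and library 4 stood above libraries 5 and 6. Without library 4 the range was 1.20-fold, so that library set much of it. Tnfrsf25 was at 17.7, 18.6, 20.2, 23.4, 23.2 and 22.8 CPM, a range of 1.32-fold, with libraries 1 to 3 again lowest.

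Cd40lg encodes CD40 ligand, the surface protein with which helper T cells activate B cells and dendritic cells through CD40. It was at 10.4, 9.80, 9.61, 15.5, 17.1 and 15.97 CPM, a range of 1.77-fold. Libraries 4, 5 and 6 were high, the reverse of Tnfrsf9 and Tnfrsf8. The interval was 8.61 to 10.7 CPM in the lowest library and 15.7 to 18.5 CPM in the highest, so the gap exceeded counting error.

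Of the 10 members, 2 ranged at least 2-fold (Tnfrsf9 and Tnfrsf8), against 10.5% of the 11516 genes averaging 1 CPM or more. With Cd40lg, 3 ranged at least 1.5-fold, against 27.6% of those genes. The median range was 1.31-fold for the members and 1.29-fold for all these genes. Where the minimum mean was raised to 10 CPM, which all members reached, 3.33% of genes ranged at least 2-fold. The 2-fold count depended on the scaling. With plain totals, which move the median gene by up to 0.12 (log2) between libraries relative to TMM, Tnfrsf9 ranged 1.96-fold and Tnfrsf8 1.99-fold, and the count was 0.

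**Figure D2:**
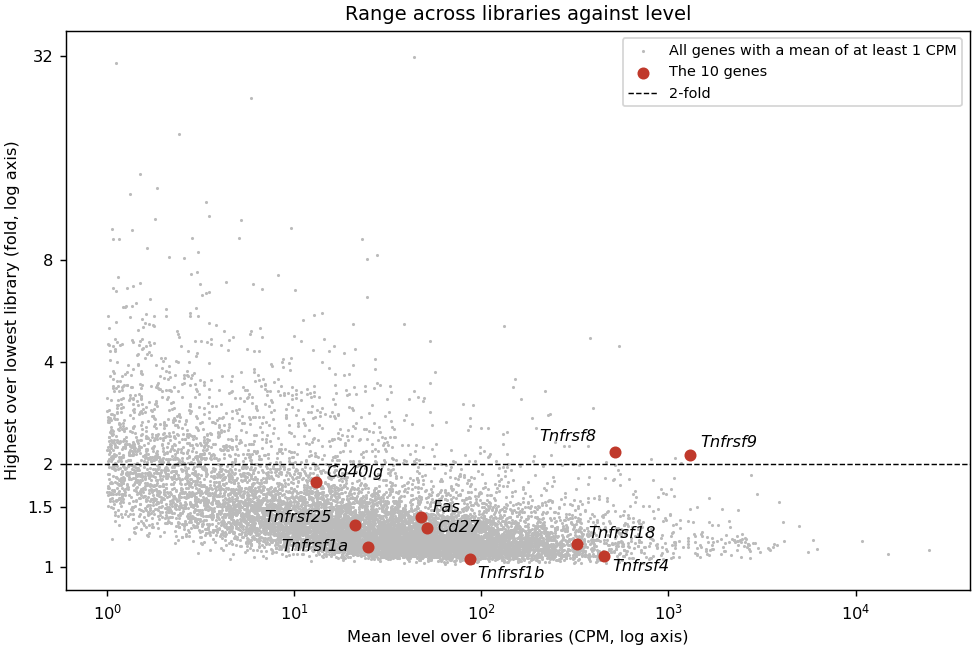
Fold range over the 6 libraries against mean CPM, both on log axes, for genes averaging 1 CPM or more. Grey points are all such genes and red points are the 10 members, of which Tnfrsf9 at 2.14-fold and Tnfrsf8 at 2.17-fold lie highest and Tnfrsf1b at 1.05-fold lowest.

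Levels were compared between genes per length, as FPKM, the authors' deposited values of fragments per kilobase scaled to the library total. Tnfrsf9 led in every library with 713, 720, 696, 367, 373 and 400.1 FPKM, between rank 104 and rank 146 of all genes. Tnfrsf4 followed at 328 to 379 FPKM, Tnfrsf18 at 302 to 324 FPKM and Tnfrsf8 at 99.5 to 198 FPKM. The ranges of Tnfrsf4, Tnfrsf18 and Tnfrsf8 did not overlap, but that of Tnfrsf9 reached into that of Tnfrsf4. The 6 other members were lower. Cd27 had a median of 28.7 FPKM, Fas 19.0, Tnfrsf1b 17.7, Tnfrsf1a 11.6, Cd40lg 10.01 and Tnfrsf25 8.48. Neighbours in that order overlapped, except that Tnfrsf8 was above Cd27 and Tnfrsf1b above Tnfrsf1a in all 6 libraries with no overlap. Fas was above Tnfrsf1b in 4 of 6 libraries, Tnfrsf1a above Cd40lg in 3 of 6, and Cd40lg above Tnfrsf25 in 5 of 6.

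**Figure D3:**
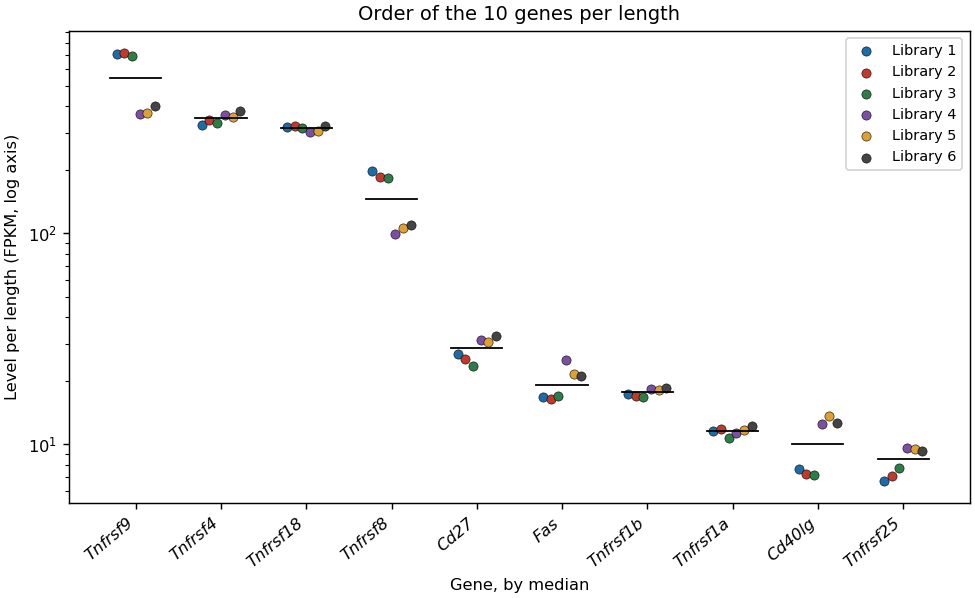
Deposited FPKM of the 10 genes in order of their median, on a log axis, with 1 coloured point for each library and a line at the median. Tnfrsf9, Tnfrsf4, Tnfrsf18 and Tnfrsf8 lie between 99.5 and 720 FPKM, and the other 6 genes reach at most 32.6 FPKM.

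Ratios of FPKM within a library do not depend on how libraries are scaled against each other, and the pairs given here were picked after the levels were known. Tnfrsf9 over Tnfrsf4 was 2.17, 2.09, 2.09, 1.002, 1.04 and 1.05. In libraries 1 to 3 the 4-1BB transcript was thus more abundant per length than that of OX40, and in library 4 the levels were nearly equal. Tnfrsf9 over Tnfrsf18 was 2.23, 2.22, 2.21, 1.21, 1.23 and 1.24. By contrast, Tnfrsf9 over Tnfrsf8 was 3.59, 3.88, 3.80, 3.68, 3.50 and 3.66, which spans 1.11-fold, and high and low libraries were not separated. Tnfrsf9 over Cd40lg spanned 3.66-fold, with 93.8, 99.97, 97.7, 29.5, 27.3 and 31.6. Tnfrsf4 over Tnfrsf18, neighbouring genes on chromosome 4, was 1.03, 1.06, 1.06, 1.21, 1.18 and 1.18, so these genes changed a little relative to each other. Tnfrsf1b over Tnfrsf1a stayed between 1.44 and 1.62.

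**Figure D4:**
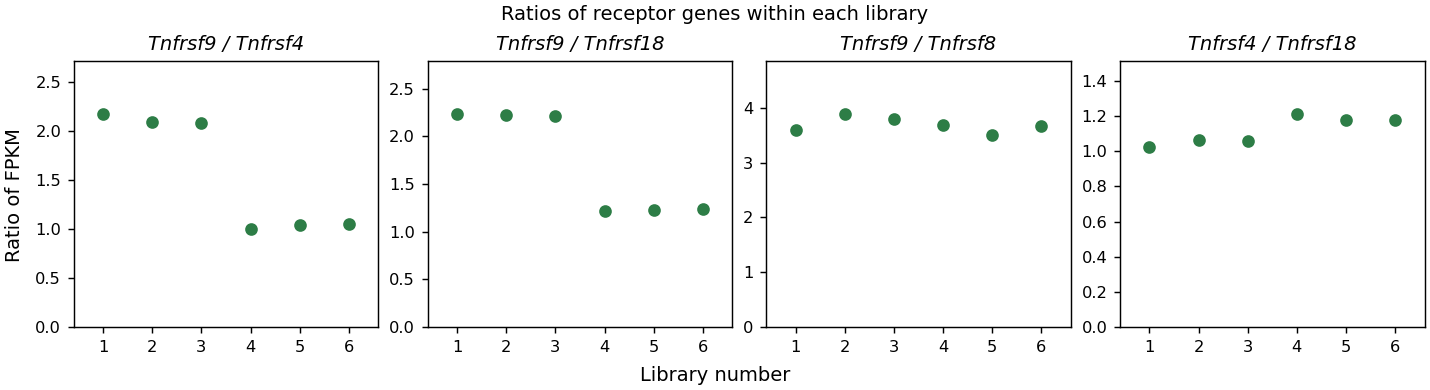
Ratio of FPKM between pairs of members within each of the 6 libraries. Tnfrsf9 over Tnfrsf4 and Tnfrsf9 over Tnfrsf18 lie between 2.09 and 2.23 in libraries 1 to 3 and between 1.002 and 1.24 in libraries 4 to 6, whereas Tnfrsf9 over Tnfrsf8 stays between 3.50 and 3.88.

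Likeness of profiles was measured as the root mean square difference of log2 CPM over the 6 libraries, each gene centred on its own mean. It was taken among 8229 named genes averaging 10 CPM or more, with Gm, LOC and Rik gene models left out. Tnfrsf9 and Tnfrsf8 differed by 0.05. The nearest genes to Tnfrsf9 were Pik3ap1, an adaptor of phosphoinositide 3-kinase, Cxcr4, the receptor of the chemokine CXCL12, and Atxn7l2, at 0.03, 0.04 and 0.04, and Tnfrsf8 was sixth. Cd24a, Cxcr4 and Dennd11 were nearest to Tnfrsf8. Antxr2, Dffb and Il6ra, a chain of the interleukin-6 receptor, were nearest to Cd40lg, from which Tnfrsf9 differed by 0.86.

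Start regions are shown for Tnfrsf9 and Tnfrsf8, for Tnfrsf4 and Tnfrsf18, and for Fas. The profiles of Tnfrsf9 and Tnfrsf8 differed by 0.05. Those of Tnfrsf4 and Tnfrsf18, which ranged only 1.07-fold and 1.17-fold, differed by 0.09. Sequences are the 250 bases before each start in RefSeq on GRCm38.p6, read 5′ to 3′ on the gene's strand. Capitals mark matches on either strand to GGGNNNNNCC, the letters of many NF-kB sites, and to TGANTCA, those of many AP-1 sites. Matches to the first can overlap each other and then form 1 capital run. Tnfrsf9 has 2 starts in RefSeq, the downstream of which is shown, and gene counts do not tell them apart. The windows are chr4:150927749-150927998 (+ strand) for Tnfrsf9, chr4:145315165-145315414 (- strand) for Tnfrsf8, chr4:156013445-156013694 (+) for Tnfrsf4, chr4:156026072-156026321 (+) for Tnfrsf18 and chr19:34290409-34290658 (+) for Fas.
Tnfrsf9: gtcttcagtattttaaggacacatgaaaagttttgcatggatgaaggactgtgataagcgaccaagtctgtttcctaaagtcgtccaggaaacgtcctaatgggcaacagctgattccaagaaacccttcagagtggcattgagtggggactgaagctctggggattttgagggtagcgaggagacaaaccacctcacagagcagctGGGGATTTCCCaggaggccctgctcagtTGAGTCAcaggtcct
Tnfrsf8: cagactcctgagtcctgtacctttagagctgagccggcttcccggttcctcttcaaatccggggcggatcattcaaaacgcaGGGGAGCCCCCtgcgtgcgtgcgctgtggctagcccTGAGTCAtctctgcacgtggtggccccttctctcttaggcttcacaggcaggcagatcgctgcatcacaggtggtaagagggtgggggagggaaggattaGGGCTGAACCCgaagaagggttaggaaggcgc
Tnfrsf4: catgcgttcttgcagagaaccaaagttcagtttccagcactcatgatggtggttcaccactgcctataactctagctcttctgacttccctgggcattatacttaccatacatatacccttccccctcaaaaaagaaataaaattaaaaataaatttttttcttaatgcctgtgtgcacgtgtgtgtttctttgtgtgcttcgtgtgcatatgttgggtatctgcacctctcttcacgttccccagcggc
Tnfrsf18: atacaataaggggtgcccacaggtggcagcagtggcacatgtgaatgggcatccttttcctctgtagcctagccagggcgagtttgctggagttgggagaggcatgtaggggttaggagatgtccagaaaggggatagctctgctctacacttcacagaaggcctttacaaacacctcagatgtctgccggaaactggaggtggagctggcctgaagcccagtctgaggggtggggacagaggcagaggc
Fas: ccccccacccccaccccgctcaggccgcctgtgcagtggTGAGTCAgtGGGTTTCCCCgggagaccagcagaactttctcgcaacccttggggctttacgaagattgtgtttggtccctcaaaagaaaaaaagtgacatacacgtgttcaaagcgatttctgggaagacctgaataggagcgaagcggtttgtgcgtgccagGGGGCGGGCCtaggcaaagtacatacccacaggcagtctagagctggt
Windows were found for 9 members, 11 in all, and none was found for Cd40lg. The letters GGGNNNNNCC occurred in 8 of the 11, against 45.8% of 32851 windows of all genes, and TGANTCA in 3 of 11, against 6.75%. Another string, GGAAA, the core of NFAT sites, is not capitalised and occurred in 8 of 11, against 55.6%. Tnfrsf9 (downstream start), Tnfrsf8 and Fas held both capitalised strings, which 2.38% of all windows did. Tnfrsf4, Tnfrsf18 and the upstream Tnfrsf9 start held neither. Fas, which also holds both, was low in the libraries where Tnfrsf9 and Tnfrsf8 were high. Among windows not shown, those of Tnfrsf1b (range 1.05-fold), Tnfrsf1a (1.14-fold), Cd27 (1.30-fold) and Tnfrsf25 (1.32-fold) held GGGNNNNNCC and no TGANTCA. The strings and windows were picked with the levels known, and a match is a description of letters only.

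Receptors and their ligands were set side by side in FPKM. Tnfsf9, the ligand of 4-1BB, was at 5.73 to 7.42 FPKM, and Tnfrsf9 exceeded it 61.3 to 110.5 times. Tnfsf4, the OX40 ligand, was at 13.1 to 27.7 FPKM, and Tnfrsf4 exceeded it 13.2 to 26.2 times. Unlike its receptor, Tnfsf4 differed between libraries: it was 23.1, 22.1, 24.2, 42.7, 41.9 and 42.3 CPM, a range of 1.93-fold with libraries 4 to 6 high. Tnfsf8, which encodes the CD30 ligand, was close to its receptor, at 92.7 to 114 FPKM, and Tnfrsf8 was 0.962 to 2.04 times as high.

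The ligands of GITR, CD27, DR3 and FAS were scarce or absent. Tnfsf18, the GITR ligand, had 0 reads in 5 libraries and 1 in library 5, where 3 reads would stand for 0.0791 to 0.0966 CPM. Cd70, the ligand of CD27, had 5 to 27 reads, Tnfsf15 (TL1A) 20 to 55 reads and Fasl (FAS ligand) 40 to 94 reads. In contrast, the ligands of the TNF receptors exceeded them. Lta (lymphotoxin alpha) was at 142 to 179 FPKM and Tnf at 33.9 to 53.4 FPKM, against 10.7 to 18.4 FPKM for the 2 receptors. Tnf was 61.8, 58.5, 59.3, 81.1, 78.2 and 85.4 CPM, and Lta was 304, 287, 280.2, 222, 239 and 248 CPM. The 2 cytokines thus had opposite high and low libraries. Cd40, the receptor for the Cd40lg product and a gene of B cells and dendritic cells, had 19 to 66 reads, while Cd40lg had 322 to 594.

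**Figure D5:**
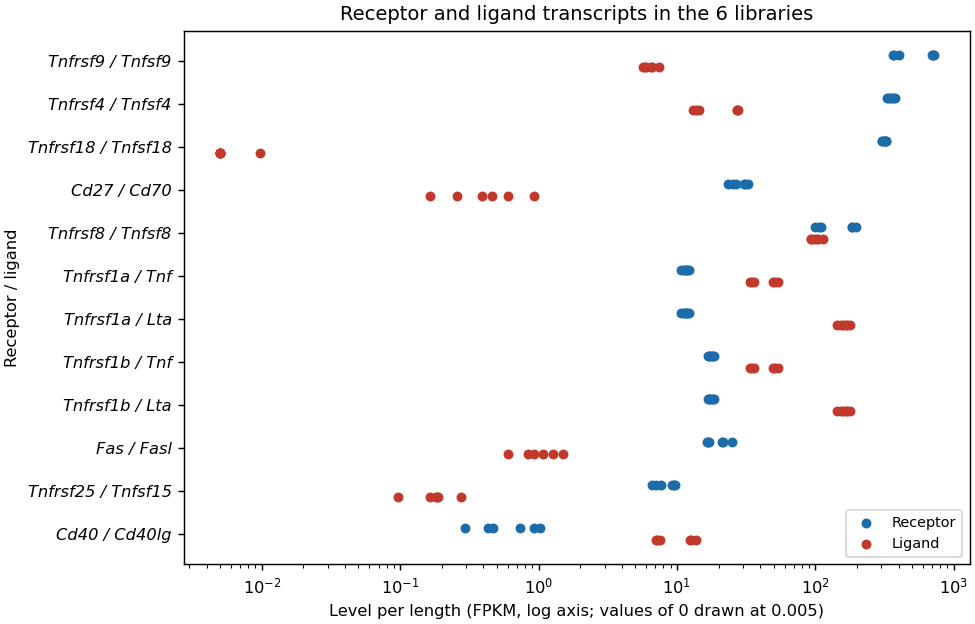
Deposited FPKM of each receptor and of its ligand in the 6 libraries, on a log axis, with genes listed at 0 drawn at 0.005. Tnfrsf9, Tnfrsf4 and Tnfrsf18 lie far above their ligands, Tnfrsf8 lies near its ligand and both TNF receptors lie below Tnf and Lta.

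Of 18 TNF superfamily ligands, which include Cd40lg, 17 were in the table, 12 averaged 1 CPM or more and 2 of these ranged at least 2-fold (Fasl at 2.61-fold and Tnfsf15 at 2.52-fold, both with few reads). 6 of those 12 ranged at least 1.5-fold, against 27.6% of all genes, among them Tnfsf14 (LIGHT), which was 27.2, 30.6, 29.9, 37.6, 44.9 and 43.7 CPM. Tnfsf12 and Tnfsf13, below the minimum with at most 1 and 2 reads, overlap exons of the same-strand gene Tnfsfm13. That gene is not in the count table, so these low counts are uncertain. Of 19 other receptors of the family, 9 averaged 1 CPM or more and 2 of them ranged at least 2-fold: Cd40, with few reads, and Tnfrsf12a at 2.09-fold, which is named after its value was seen. At 1.5-fold the count was 5 of 9, against 27.6% of all genes averaging 1 CPM or more. The share of all these genes ranging at least 2-fold was 10.5%. The decoy receptor Tnfrsf23 was 30.3, 31.7, 31.1, 16.1, 16.6 and 19.1 CPM, with libraries 1 to 3 high as for Tnfrsf9. Tnfrsf22 (15.5 to 23.5 CPM) and Tnfrsf26 (104 to 139 CPM) are closely related copies beside it, so reads shared between them make this value uncertain. The receptor Relt was 13.9, 13.6, 14.2, 19.5, 18.6 and 21.2 CPM, with libraries 4 to 6 high.

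Intracellular partners were described in the same way. Of all genes averaging 1 CPM or more, 10.5% ranged at least 2-fold and 27.6% at least 1.5-fold. All 13 TRAF adaptors and regulators averaged 1 CPM or more. Of these, 0 ranged at least 2-fold, 2 ranged at least 1.5-fold and the median range was 1.14-fold. The 2 were Traf1 and Traf5. Traf1, an adaptor that binds 4-1BB and CD30 and is itself induced by NF-kB, was at 355, 327, 349.9, 217, 215 and 224 CPM. Its libraries 1 to 3 were high, as for Tnfrsf9 and Tnfrsf8. Traf5, an adaptor named here after its values were seen, ran the other way at 4.795, 5.12, 4.65, 7.54, 7.70 and 6.83 CPM, and the range was 1.65-fold for both. Tnfaip3 (A20), an enzyme that restrains NF-kB, was 398, 401, 358, 274, 269 and 271 CPM, a range of 1.49-fold. A list of 11 genes of death signalling held adaptors and caspases, and also Bid, Ripk3, Mlkl and Faim2. Of the 11, 10 passed the minimum, 0 ranged at least 2-fold and 2 ranged at least 1.5-fold, with a median range of 1.26-fold. The 2 were Cradd and Mlkl. The widest was Cradd, an adaptor with a death domain, at 3.06, 3.50, 3.04, 5.27, 3.56 and 4.41 CPM. Cflar, which encodes the caspase-8 inhibitor c-FLIP and had the highest mean CPM of these, was at 364 to 430.2 CPM. Of 4 genes linked to receptor shedding (Adam10, Adam17, Rhbdf2 and Mmp9), 3 passed the minimum and none reached 1.5-fold. The widest of the 3 was Adam10 at 1.24-fold.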

How the data were processed

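RNA of 6 libraries was sequenced. The labels' protocols name TRIzol extraction and a VAHTS Universal V5 library kit. The submitters' processing notes list DESeq2, R 3.2.0, HTSeq, HISAT2 and fastp with the build GRCm39, and the strand setting was not found in the sources used here. Raw gene counts and FPKM were used as the authors deposited them. FPKM equalled counts over length and total within a relative 3.09e-08 over 11541 genes, so it is another scaling of the same reads.

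Counts were scaled with TMM in edgeR 4.0.16 (R 4.3.3). Ranges used log2 CPM with 2 as the prior count, so folds of low genes are understated, and covered genes averaging 1 CPM or more, in Python 3.11.15 with pandas 2.3.3. Total counts were 32435799 to 36316162 per library. The code was tested on simulated counts. The labels give no groups, so no library was assigned. Named genes were all 10 members, their partners, and in each other list genes averaging 10 CPM or more and ranging at least 1.5-fold, the most abundant and the widest ranging, plus the 3 nearest profiles of each member ranging at least 1.5-fold. Tnfrsf12a, Traf5, Mlkl and some markers of other cell types were named outside that rule, after their values were seen. Members and lists were chosen with earlier results of these data known. Alternatives were DESeq2 1.42.0 size factors, plain totals, FPKM with a pseudocount of 0.1, a prior count of 0.5, other minimum levels and each library left out. Gene neighbours and start regions came from RefSeq (GRCm38.p6), another build than the authors'.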

Additional observations from a re-analysis of the deposited data

How the results depend on the processing

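The number of members ranging at least 2-fold was 2 under TMM scaling, DESeq2 size factors, a prior count of 0.5, minimum means of 5 or 10 CPM, no minimum and with each library left out in turn, with TMM factors computed again for the remaining libraries. It was 0 with plain totals and 0 with FPKM, under which Tnfrsf9 ranged 1.96-fold and Tnfrsf8 1.99-fold, by the scaling's own construction. The share of all genes ranging at least 2-fold was 4.69% with a minimum mean of 5 CPM, 3.33% with 10 CPM and 32.2% without a minimum. Alternatives for the counts at 1.5-fold and the median range were chosen after seeing the data. The count at 1.5-fold was 3, and 4 with plain totals or FPKM, where Fas reached 1.52-fold. Of 100 values of single members under alternatives, 83 moved by less than counting error and 17 moved more. This split does not measure robustness, because many of the values could hardly move. A range changes little when the library left out is neither the gene's highest nor its lowest. The prior count matters little at the read counts of the members. With plain totals, Tnfrsf9, Tnfrsf4, Tnfrsf18, Cd27, Tnfrsf8 and Fas moved more than counting error. With FPKM, which is also scaled to the library total, the same genes except Cd27 did. With DESeq2 size factors the highest library of Tnfrsf9 was 1 in place of 2. No paired analysis was possible because no library has a group. The labels give no groups, which limits what can be compared, and depth limits the ligands with few reads, such as Cd70 and Tnfsf18.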

Other observations

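The widest gap between ordered libraries separated libraries 1, 2 and 3 from libraries 4, 5 and 6 in 5 of the 10 members. Cd40lg, Fas and Tnfrsf25 were lower in libraries 1 to 3, and Tnfrsf9 and Tnfrsf8 were lower in libraries 4 to 6. The same gap was the widest in 34.8% of the 11516 genes averaging 1 CPM or more. Il2ra, the interleukin-2 receptor alpha chain and another gene of activated and regulatory T cells, was 2301, 2201, 2178, 1556, 1613 and 1778 CPM. Cd28, the co-stimulatory receptor of naive T cells, was 848, 786, 783, 524, 510.2 and 507 CPM. Both were high in libraries 1 to 3, as were Tnfrsf9 and Tnfrsf8.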
